A study of Mus musculus with 4 samples.

Results

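The 37 genes described here encode the enzymes that build cholesterol and fatty acids, the proteins that switch these enzymes on and off, and the pumps that export cholesterol. They were taken by name from the 26561 genes in the count table, and fall into 18 genes of sterol synthesis, 11 of fatty acid synthesis and 8 regulators and efflux genes. All 37 passed the filter on low counts that left 15298 genes for testing. The cells were MC38, a mouse colon adenocarcinoma line of wild-type genotype that the labels call epithelial. The irradiated group (IR, 2 libraries) received a single 30 Gy fraction of X-rays, and its RNA was taken 60 h later. The unirradiated group (nonIR, 2 libraries) has no stated harvest time, so time in culture and irradiation cannot be told apart.

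Cholesterol and fatty acids are both assembled from cytosolic acetyl-CoA, and cells need both to make membrane. The transcription factors SREBP1 and SREBP2 are held in the endoplasmic reticulum with their escort SCAP by the INSIG proteins when sterol is plentiful. When sterol falls, SCAP carries them to the Golgi, where proteases release the active part, which enters the nucleus and raises transcription of the synthesis genes. A second sensor, the liver X receptor (LXR), is activated by oxysterols and raises the genes of cholesterol export, and in many tissues also Srebf1.

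Library totals ran from 26059171 to 29881492 counts. The libraries within each group were further apart than counting noise, with a mean chi-square per gene of 4.73 between the IR and 3.38 between the nonIR libraries, and each was kept as its own sample. The labels do not say that these are separate cultures, so the p-values measure the spread between these libraries only, which may be technical. Of 8 epithelial markers in the table, Epcam, Krt18, Krt20, Cldn7 and Vil1 lay at or below 0.168 CPM (counts per 1000000 of the scaled library size) in every library, so these defining epithelial transcripts were nearly absent. Cdh1 was the epithelial marker with the most reads, at 73.0 and 67.7 CPM in IR cells and 36.3 and 34.6 CPM in nonIR cells. The remaining markers were detected at low levels. Krt8 had 30 and 20 counts in IR cells and 6 and 3 in nonIR cells, and Krt19 had 46 and 31 against 50 and 53. Fibroblast-type markers summed to 1779 and 1797 CPM in IR cells and to 1205 and 1200 CPM in nonIR cells, most of it Col1a2 and Col3a1. All measurements are of bulk RNA, in which fewer cells of a type and less RNA per cell cannot be told apart.

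Irradiated cells kept the bulk of their lipid synthesis transcripts, and changes were mostly small. Summed over the 37 genes, the level was 6754 and 6789 CPM in IR cells, against 7216 and 7317 CPM in nonIR cells. Of the 37 genes, 8 were higher and 18 lower in IR cells at an adjusted p under 0.05, and 11 did not pass (edgeR's quasi-likelihood test, Benjamini-Hochberg adjusted over all genes tested). Among all 15298 genes tested, 30.4% were higher and 30.3% lower, or 60.7% in either direction. Among the 10500 genes with a mean of at least 5 CPM, a level that every one of the 37 except Abcg1 reached, 29.8% were higher and 41.0% lower. The median log2 fold change was -0.10 over the 37 genes, against 0.01 over all genes tested and -0.07 over those of at least 5 CPM. The median absolute log2 fold change was 0.30 over the 37 genes, near the 0.31 over genes of at least 5 CPM. Over all tested genes it was 0.39. By branch it was 0.13 for sterol synthesis, 0.33 for fatty acid synthesis and 0.44 for regulators and efflux. Only Abcg1 changed by 2-fold or more, where 12.4% of all tested genes rose and 3.47% fell by that much. Those shares include genes under 5 CPM and were not taken for the more abundant genes alone. Libraries of the groups did not overlap for 31 genes, with IR above for 12 and below for 19, and the same held for 78.4% of all tested genes (39.7% above, 38.7% below).

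**Figure D1:**
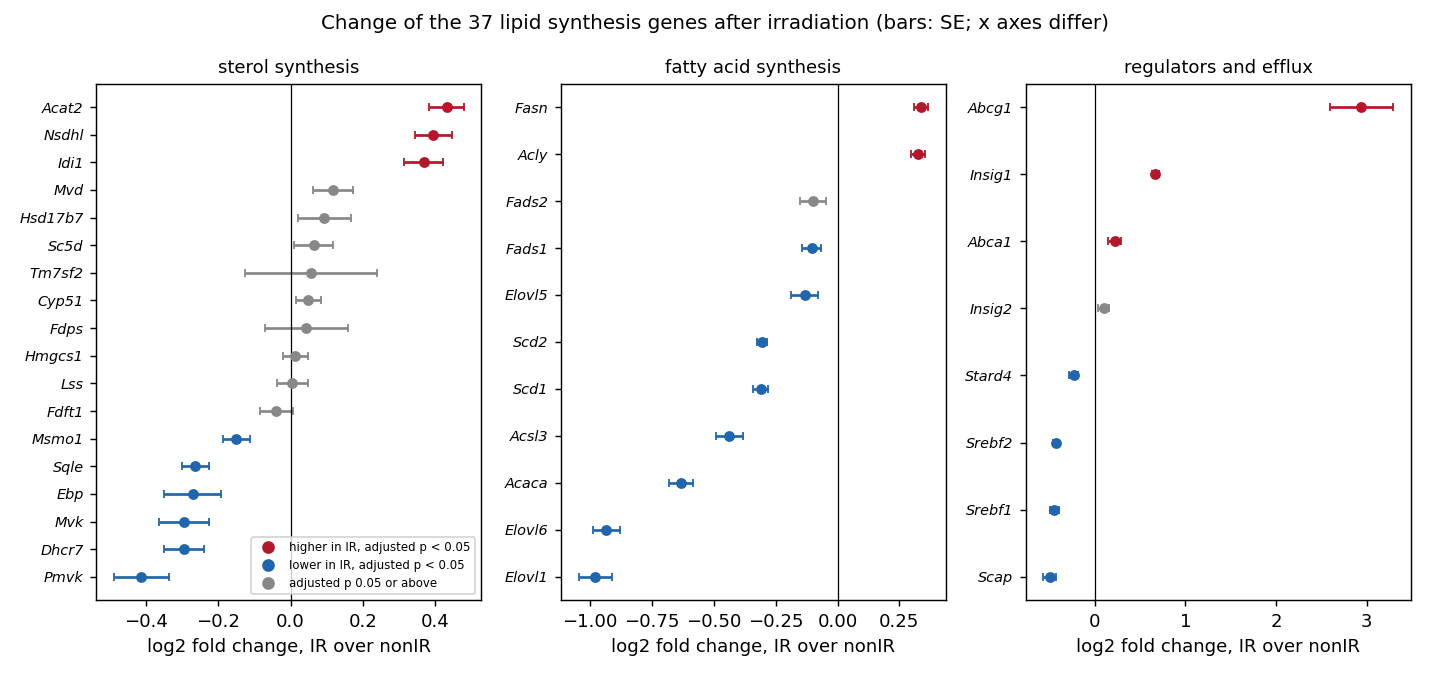
Log2 fold change of IR over nonIR cells for each of the 37 genes, by branch, with the standard error as bars and the call by colour. The x axes differ between panels: sterol genes lie between -0.41 and 0.43, fatty acid genes between -0.98 and 0.34, and Abcg1 stands at 2.94.

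The 18 sterol synthesis genes, summed, were close in level between the conditions, and their order depended on the scaling. Their summed level was 2056 and 2045 CPM in IR cells and 2034 and 2070 CPM in nonIR cells, so the groups overlap on the TMM scale. As a share of all counts, without TMM, they held 0.2097% and 0.2083% in IR cells and 0.1997% and 0.2022% in nonIR cells, with both IR libraries above both nonIR libraries. Of these genes 3 (16.7%) rose, 6 (33.3%) fell and 9 did not pass, where 29.8% of all genes of at least 5 CPM rose and 41.0% fell. None of the 18 changed by as much as 1.5-fold, a size at which 17.5% of all tested genes rose and 10.7% fell. Those shares include genes under 5 CPM, a level that all 18 reached. Their median absolute log2 fold change was 0.13, against 0.39 over all tested genes and 0.31 over those of at least 5 CPM. The largest of the 18 absolute changes was 0.43, and 63.6% of the genes of at least 5 CPM stayed within that size.

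The first enzymes of the pathway moved apart from each other. Acat2 (ENSMUSG00000023832, chromosome 17, 12942890 to 12960747, GRCm38), the cytosolic thiolase that joins acetyl-CoA units, had 136 and 142 CPM in IR cells, against 103 and 103 CPM in nonIR cells. Both IR libraries stood above both nonIR libraries, and the rise was 1.35-fold (log2 fold change 0.43, SE 0.05, adjusted p = 5.10e-19). Of its transcript 50-mers, 39.1% also occur in Acat3, a neighbouring close copy with 54 counts in all libraries together, so some reads may be divided. Hmgcs1, the next enzyme, which makes HMG-CoA, was among the most abundant of the branch and did not pass, at 318 and 308 CPM in IR cells and 305 and 314 CPM in nonIR cells (log2 fold change 0.01, SE 0.03, adjusted p = 0.746).

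The kinases that phosphorylate mevalonate both fell, while the decarboxylase that follows them did not pass. Mvk, mevalonate kinase (chromosome 5, 114444269 to 114460591), had 42.6 and 42.6 CPM in IR cells, against 54.8 and 49.8 CPM in nonIR cells (log2 fold change -0.30, SE 0.07, adjusted p = 5.96e-05). Pmvk, phosphomevalonate kinase (chromosome 3, 89454541 to 89469013), had 36.1 and 33.8 CPM in IR cells, against 46.2 and 46.9 CPM in nonIR cells, and was 1.33-fold lower (log2 fold change -0.41, SE 0.08, adjusted p = 1.74e-07). In both kinases each IR library lay below each nonIR library. Mvd had 75.6 and 75.6 CPM in IR cells and 72.1 and 67.3 CPM in nonIR cells (log2 fold change 0.12, SE 0.06, adjusted p = 0.0591). It passed as higher under 4 other settings, and its adjusted p ran down to 3.56e-03 when libraries were scaled by total counts alone.

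Idi1, the isomerase that makes the active isoprenoid unit (chromosome 13, 8885501 to 8892451), rose. It had 99.7 and 95.7 CPM in IR cells, against 75.3 and 76.2 CPM in nonIR cells, a 1.29-fold rise with separated groups (log2 fold change 0.37, SE 0.05, adjusted p = 2.67e-11). Of its 50-mers, 17.7% also occur in Gm13502, which had 196 counts against 9802 for Idi1. Fdps and Fdft1, which build farnesyl diphosphate and squalene, did not pass (log2 fold changes 0.04, SE 0.12, and -0.04, SE 0.04). The level of Fdps is uncertain: its exons share 1124 bases with Gm43738 on the same strand. Fdft1 shares 774 exon bases on the other strand with the protease gene Ctsb, which had 61878 counts against 15349 for Fdft1 and rose (log2 fold change 1.14).

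The enzyme that puts oxygen on squalene fell, and the ring closure that follows did not pass. Sqle, squalene epoxidase, which is often described as a control point of the pathway, had 209 and 205 CPM in IR cells, against 247 and 250 CPM in nonIR cells (log2 fold change -0.26, SE 0.04, adjusted p = 3.51e-12). Its groups were clearly apart, and no 50-mer of its transcripts occurs in another gene. Lss, which closes the ring to lanosterol, had 155 and 154 CPM in IR cells and 156 and 151 CPM in nonIR cells, with IR inside the range of nonIR (log2 fold change 0.00, SE 0.04, adjusted p = 0.934).

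Among the 8 enzymes that trim lanosterol toward cholesterol, 1 rose, 3 fell and 4 did not pass. Nsdhl, the dehydrogenase of C4 demethylation (chromosome X, 72918557 to 72958514), had 114 and 108 CPM in IR cells, against 81.3 and 87.3 CPM in nonIR cells, a 1.32-fold rise (log2 fold change 0.40, SE 0.05, adjusted p = 1.02e-13). Its partner in the same reaction series, Msmo1, fell (log2 fold change -0.15, SE 0.04, adjusted p = 1.21e-04). So did Ebp, the sterol isomerase (log2 fold change -0.27, SE 0.08, adjusted p = 1.18e-03). Dhcr7, which reduces 7-dehydrocholesterol to cholesterol (chromosome 7, 143823145 to 143848410), had 64.9 and 68.9 CPM in IR cells, against 80.5 and 83.7 CPM in nonIR cells, and was 1.23-fold lower (log2 fold change -0.30, SE 0.06, adjusted p = 4.09e-07). Nsdhl and Msmo1 therefore changed in opposite directions within a reaction series, each with separated libraries. Cyp51, Tm7sf2, Hsd17b7 and Sc5d, which did not pass, had log2 fold changes between 0.05 and 0.09, and those of Cyp51 and Tm7sf2 changed sign without nonIR replicate 1. Tm7sf2 was the least abundant enzyme of the branch at 7.29 and 7.12 CPM in IR cells and 6.62 and 7.23 CPM in nonIR cells, and Vps51 shares 532 of its exon bases on the same strand.

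The number of sterol genes called higher depended on the scaling and the filter. With libraries scaled by total counts alone, which moved the median of all genes by 0.06 on the log2 scale, 7 sterol genes were called higher, and with a filter of at least 1 CPM in 2 libraries 5 were. The 6 lower calls were the same in number under every setting tried.

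**Figure D2:**
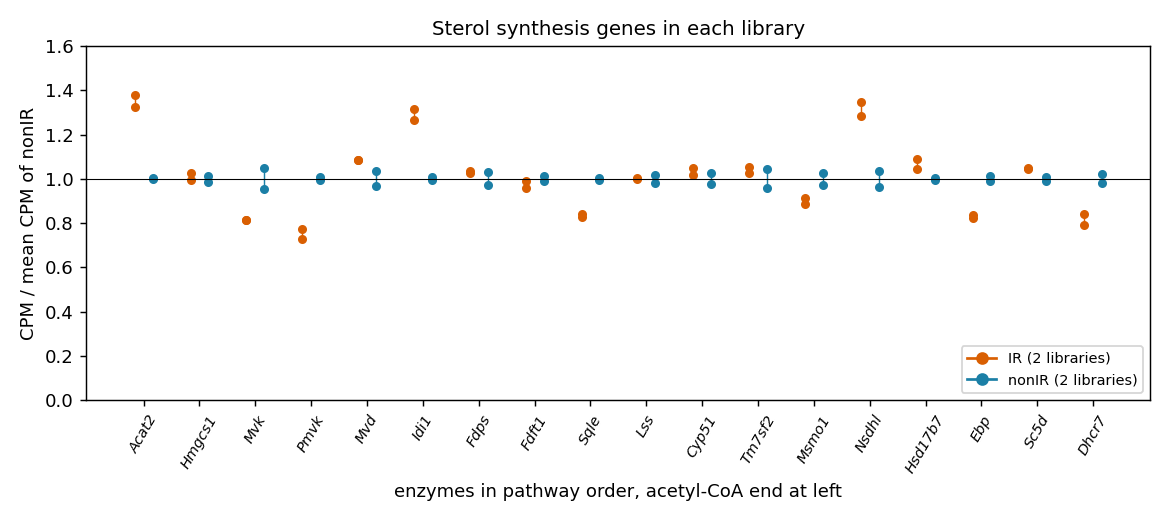
CPM of each sterol synthesis gene in each library, divided by the mean of the nonIR libraries, with genes in the order of the pathway from acetyl-CoA at the left. The points joined by a line are the 2 libraries of a group; Acat2, Idi1 and Nsdhl sit above 1 in IR cells, Mvk, Pmvk, Sqle, Msmo1, Ebp and Dhcr7 below.

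In the fatty acid branch 8 of 11 genes (72.7%) fell, 2 (18.2%) rose and 1 did not pass. Among all genes of at least 5 CPM, 41.0% fell and 29.8% rose. The lower calls of the branch numbered 6 with total count scaling and 6 with a filter of at least 1 CPM in 2 libraries. With no filter they numbered 9. The pair of the branch that rose makes acetyl-CoA and assembles the chain. Acly, ATP citrate lyase, which makes cytosolic acetyl-CoA from citrate, had 602 and 611 CPM in IR cells, against 481 and 487 CPM in nonIR cells. The groups were separated, with a 1.25-fold rise (log2 fold change 0.33, SE 0.03, adjusted p = 6.38e-29). Fasn, fatty acid synthase, which assembles palmitate (chromosome 11, 120805846 to 120824547), had 598 and 613 CPM in IR cells, against 492 and 465 CPM in nonIR cells, a 1.26-fold rise (log2 fold change 0.34, SE 0.03, adjusted p = 5.88e-31). Neither transcript shares a 50-mer with another gene.

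Acaca, acetyl-CoA carboxylase alpha, which makes the malonyl-CoA that Fasn consumes (chromosome 11, 84129672 to 84401651), fell. It had 88.8 and 89.5 CPM in IR cells, against 136 and 140 CPM in nonIR cells, and was 1.55-fold lower (log2 fold change -0.63, SE 0.05, adjusted p = 4.84e-37). Within each library, the level of Fasn per exon length was 10.5 and 10.7 times that of Acaca in IR cells and 5.63 and 5.18 times in nonIR cells, a ratio that does not depend on the scaling and was chosen after the values were seen. Gm5182 holds 29.2% of the 50-mers of Acaca, so part of its reads may be divided or dropped. Its paralog Acacb, which makes malonyl-CoA at mitochondria and belongs to the list of other fatty acid genes, rose 2.84-fold. Acacb had 21.7 and 23.4 CPM in IR cells, against 7.79 and 8.08 CPM in nonIR cells (log2 fold change 1.505, SE 0.13, adjusted p = 4.44e-30).

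The elongases that extend saturated chains had the largest falls of all 37 genes. Elovl6, which extends palmitate to stearate (chromosome 3, 129532355 to 129638495), had 57.5 and 56.7 CPM in IR cells, against 103 and 116 CPM in nonIR cells, a 1.91-fold fall (log2 fold change -0.93, SE 0.05, adjusted p = 1.93e-63). Elovl1, which makes very long chains (chromosome 4, 118428093 to 118432953), had 36.6 and 34.5 CPM in IR cells, against 66.9 and 73.4 CPM in nonIR cells, a 1.97-fold fall (log2 fold change -0.98, SE 0.07, adjusted p = 2.47e-47). Its exons share 53 bases on the other strand with the mitotic gene Cdc20, which had 23689 counts against 5988 for Elovl1 and rose (log2 fold change 0.37). Elovl5, the elongase of polyunsaturated chains, moved far less (log2 fold change -0.13, SE 0.05, adjusted p = 0.0245). That call was lost with total count scaling (adjusted p = 0.234), with the 1 CPM filter (0.0696), without nonIR replicate 2 (0.108) and without IR replicate 1 (0.207).

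The stearoyl-CoA desaturases, which put the first double bond into saturated chains, fell side by side. Scd2 (chromosome 19, 44293674 to 44306864) was the most abundant of the 37 genes, with 1570 and 1585 CPM in IR cells, against 1925 and 1973 CPM in nonIR cells (log2 fold change -0.30, SE 0.02, adjusted p = 1.36e-45). Scd1, which lies 87590 bases away on the opposite strand, had 457 and 451 CPM in IR cells, against 556 and 570 CPM in nonIR cells (log2 fold change -0.31, SE 0.03, adjusted p = 1.89e-25). Per exon length Scd2 stood at 3.07 and 3.15 times Scd1 in IR cells and at 3.10 and 3.10 times in nonIR cells, and the nonIR ratios lay within the range of the IR libraries. These copies share little sequence at this length: 2.66% of the 50-mers of Scd2 occur in Scd1.

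The front-end desaturases of polyunsaturated synthesis moved least in the branch. Fads1 had 177 and 179 CPM in IR cells, against 185 and 197 CPM in nonIR cells (log2 fold change -0.10, SE 0.04, adjusted p = 0.0145). The call was lost under total count scaling (adjusted p = 0.317), under the 1 CPM filter (0.0723), without nonIR replicate 2 (0.253) and without IR replicate 1 (0.0744). Fads2, its neighbour on chromosome 19, did not pass (log2 fold change -0.10, SE 0.05, adjusted p = 0.0841). Acsl3, a ligase that activates fatty acids and sits on lipid droplets (chromosome 1, 78657825 to 78707743), had 69.2 and 65.9 CPM in IR cells, against 89.9 and 93.2 CPM in nonIR cells, a 1.35-fold fall (log2 fold change -0.44, SE 0.05, adjusted p = 8.77e-15). Utp14b shares 244 of its exon bases on the same strand and rose (log2 fold change 0.89). Summed over the 11 genes, the branch held 3822 and 3859 CPM in IR cells, against 4218 and 4299 CPM in nonIR cells.

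**Figure D3:**
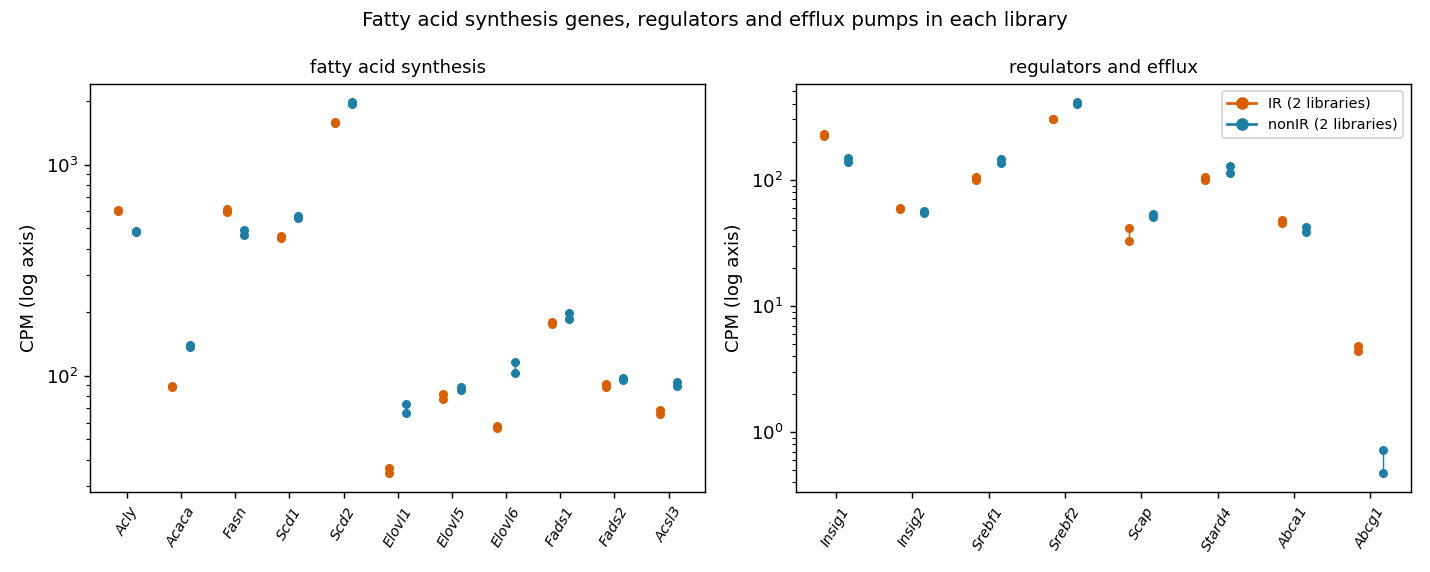
CPM of each fatty acid synthesis gene (left) and each regulator or efflux gene (right) in each library, on log axes, IR left of nonIR for each gene. Acly, Fasn, Insig1, Abca1 and Abcg1 lie higher in both IR libraries, Acaca, Elovl1, Elovl6, Srebf1, Srebf2 and Scap lower.

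Among the regulators, the brake on SREBP rose while the transcription factors and their escort fell. Insig1, which holds SCAP in the endoplasmic reticulum and is itself a known SREBP target (ENSMUSG00000045294, chromosome 5, 28071363 to 28078662), had 231 and 222 CPM in IR cells, against 147 and 138 CPM in nonIR cells. The groups lay far apart, with a 1.59-fold rise (log2 fold change 0.67, SE 0.04, adjusted p = 2.14e-61). Insig2, the isoform that depends less on SREBP, had 58.1 and 59.8 CPM in IR cells and 54.1 and 56.1 CPM in nonIR cells and did not pass (log2 fold change 0.10, SE 0.06, adjusted p = 0.175). Total count scaling brought it to adjusted p = 0.0241.

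Srebf2, which encodes the SREBP that favours sterol genes (ENSMUSG00000022463, chromosome 15, 82147181 to 82205379), had 301 and 302 CPM in IR cells, against 411 and 397 CPM in nonIR cells, a 1.34-fold fall (log2 fold change -0.42, SE 0.03, adjusted p = 1.79e-37). Srebf1, which encodes the SREBP that favours fatty acid genes (chromosome 11, 60199089 to 60222581), had 100.2 and 106 CPM in IR cells, against 145 and 136 CPM in nonIR cells, a 1.36-fold fall (log2 fold change -0.45, SE 0.05, adjusted p = 2.28e-20). Rai1 overlaps 109 of its exon bases on the other strand and did not pass (adjusted p = 0.418). Scap, the escort (chromosome 9, 110333288 to 110384950), had 32.9 and 41.5 CPM in IR cells, against 50.9 and 53.6 CPM in nonIR cells (log2 fold change -0.50, SE 0.07, adjusted p = 3.38e-11). Its IR libraries differed more from each other than those of the SREBP genes, yet both stayed below nonIR. Per exon length, Insig1 stood at 1.78 and 1.71 times Srebf2 in IR cells and at 0.833 and 0.805 times in nonIR cells. By counts alone the ratio was 0.77 and 0.73 in IR cells and 0.36 and 0.35 in nonIR cells. Srebf2 thus had more reads than Insig1 in every library, and the order of the pair turned round only per exon length. The ratio was chosen after the values were seen.

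The sterol carrier and the export pumps took different directions. Stard4, a cytosolic carrier of cholesterol and a known SREBP2 target (chromosome 18, 33199355 to 33213862), had 100.04 and 105 CPM in IR cells, against 113 and 128 CPM in nonIR cells (log2 fold change -0.23, SE 0.05, adjusted p = 7.10e-06). Abca1, the LXR-regulated pump that loads cholesterol onto apolipoprotein A-I (chromosome 4, 53030787 to 53159895), had 48.2 and 45.4 CPM in IR cells, against 42.1 and 38.3 CPM in nonIR cells (log2 fold change 0.22, SE 0.07, adjusted p = 5.06e-03). The groups did not overlap, but the call for Abca1 was lost without nonIR replicate 2 (adjusted p = 0.162) and without IR replicate 1 (0.106).

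Abcg1, the other LXR-regulated cholesterol pump (ENSMUSG00000024030, chromosome 17, 31057675 to 31117988), had the largest change of the 37 genes from a low level. It had 144 and 117 counts in IR cells, against 13 and 21 counts in nonIR cells, or 4.84 and 4.41 CPM against 0.473 and 0.719 CPM. Every IR library was several times above every nonIR library, and the fitted rise was 7.68-fold (log2 fold change 2.94, SE 0.35, adjusted p = 2.61e-16). Of all tested genes, 96.5% had a lower log2 fold change. Abcg1 is also high in macrophages, so macrophage markers are given beside it. The 6 macrophage markers listed summed to 39.2 and 33.4 CPM in IR cells and 5.02 and 4.11 CPM in nonIR cells, and Cd68, which lysosomes of many cells carry, was 37.6 and 31.6 CPM of the IR sums. The defining markers Adgre1 and Csf1r were at or below 0.0753 CPM in every library. Lyz2, another macrophage marker, rose at a low level, with 23 and 20 counts in IR cells, against 0 and 2 counts in nonIR cells (adjusted p = 5.87e-05). Ptprc, which marks blood cells in general, had 24 and 17 counts in IR cells and 10 and 6 counts in nonIR cells (adjusted p = 0.0857). Mrc1 had 1 and 5 counts in IR cells and 0 in nonIR cells. Of these 6 markers only Cd68 had a mean of at least 1 CPM. The part of these markers' cells in the change of Abcg1 was not tested.

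Promoters of the branches were compared next, since members of a pathway under common regulators moved in different directions. Of the 37 genes, 29 had at least 1 promoter in the RefSeq table used (GRCm38.p6, 250 bases before to 50 after the annotated start), 38 promoters in all. The sterol regulatory element was searched as TCACNCCAC, the CCAAT box bound by NF-Y, a common partner of SREBP, as CCAAT, the E-box as CACGTG, and the LXR element as a direct repeat of AGGTCA with 4 bases between, all on both strands. The CCAAT box was found for 23 of the 29 genes (14 of 15 sterol, 5 of 8 fatty acid, 4 of 6 regulator and efflux genes), against 41.1% of all 27025 genes in the table. Counted by promoter, it was in 24 of 38, against 37.4% of all promoters. The E-box was found for 7 of the 29 genes, against 8.09% of all genes. The strict sterol element was found for 1 gene, Hmgcs1, against 1.44% of all genes. The LXR repeat was found for 0 of 29, against 0.0148%. With the exact repeat in only 5 of 32851 promoters, its absence from these genes says little. Abcg1, Scd1, Scd2, Sqle, Stard4, Fdft1, Fads1 and Fdps had no promoter in the source used and were not searched. A match describes these letters in this window only.

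The 4 promoters below are shown because they belong to genes that did not pass (Hmgcs1), rose (Insig1 and Fasn) or fell (Srebf2), so that the shared letters can be read beside opposite responses. Capitals mark the sterol element and the CCAAT boxes, read on either strand (ATTGG is the box on the other strand), and each run reads 5′ to 3′ along the gene. Hmgcs1 is chr13:119690101-119690400 on the plus strand, Insig1 is chr5:28071162-28071461 on the plus strand, Fasn is chr11:120824498-120824797 on the minus strand and Srebf2 is chr15:82147019-82147318 on the plus strand.
Hmgcs1: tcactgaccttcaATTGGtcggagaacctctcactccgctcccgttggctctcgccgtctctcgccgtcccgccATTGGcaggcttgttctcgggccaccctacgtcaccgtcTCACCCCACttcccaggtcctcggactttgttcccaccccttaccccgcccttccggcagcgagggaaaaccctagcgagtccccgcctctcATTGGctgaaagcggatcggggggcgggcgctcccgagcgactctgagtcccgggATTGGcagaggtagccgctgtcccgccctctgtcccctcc
Insig1: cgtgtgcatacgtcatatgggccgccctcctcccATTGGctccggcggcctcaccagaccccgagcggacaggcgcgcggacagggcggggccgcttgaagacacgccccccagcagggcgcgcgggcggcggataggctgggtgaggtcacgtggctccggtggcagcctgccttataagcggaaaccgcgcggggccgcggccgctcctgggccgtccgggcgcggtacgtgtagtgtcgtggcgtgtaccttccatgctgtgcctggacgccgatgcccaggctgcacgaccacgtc
Fasn: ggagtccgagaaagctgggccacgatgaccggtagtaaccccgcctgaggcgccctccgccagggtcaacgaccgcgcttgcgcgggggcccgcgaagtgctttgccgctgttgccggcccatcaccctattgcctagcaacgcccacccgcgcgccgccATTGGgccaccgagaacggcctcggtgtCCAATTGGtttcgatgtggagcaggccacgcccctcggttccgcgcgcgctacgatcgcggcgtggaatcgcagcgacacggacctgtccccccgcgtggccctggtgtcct
Srebf2: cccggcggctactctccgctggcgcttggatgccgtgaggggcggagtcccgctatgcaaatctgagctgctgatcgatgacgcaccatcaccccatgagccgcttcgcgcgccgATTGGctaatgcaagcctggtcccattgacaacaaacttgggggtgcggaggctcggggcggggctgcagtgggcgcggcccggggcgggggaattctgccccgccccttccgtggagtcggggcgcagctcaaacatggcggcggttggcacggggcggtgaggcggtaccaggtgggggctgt
Hmgcs1, which did not pass, holds the sterol element with its first base 137 bases before the start and 4 CCAAT boxes. Fasn, which rose, holds 3 boxes, of which a pair overlaps. Insig1, which rose most among the abundant genes, and Srebf2, which fell, hold 1 box each. Insig1 also holds an E-box, left in small letters, with its first base 101 bases before the start. The other promoters shown hold no E-box. These 4 genes were picked by their response, so a link between the number of boxes and the response was not tested.

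The lists of other lipid genes, chosen with earlier results of these data known, place the 37 genes in their pathways. Of 26 tested genes of sterol uptake, storage and transfer, 13 (50%) rose and 5 (19.2%) fell, where 30.4% of all tested genes rose and 30.3% fell. The median log2 fold change of this list was 0.28. Its summed level was 3796 and 3840 CPM in IR cells, against 3369 and 3269 CPM in nonIR cells. Abca7, a lipid transporter of the same family as Abca1, had the largest rise at a mean of 5 CPM or more, with 208 and 206 CPM in IR cells, against 111 and 104 CPM in nonIR cells (log2 fold change 0.95, SE 0.04, adjusted p = 2.93e-106). Lrp8, a lipoprotein receptor, fell most, with 64.1 and 56.1 CPM in IR cells, against 181 and 177 CPM in nonIR cells (log2 fold change -1.57, SE 0.05, adjusted p = 3.97e-217). Chosen after their values were seen, Npc2 and Lipa, which free and move cholesterol inside the lysosome, rose with log2 fold changes of 0.92 and 0.77. Soat1, which esterifies cholesterol for storage, rose by 0.39, and Mylip, an LXR target that degrades lipoprotein receptors, by 0.35, also chosen after their values were seen.

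Other sterol and isoprenoid enzymes fell in 8 of 15 tested members (53.3%) and rose in 2 (13.3%), with a median log2 fold change of -0.33. Among all genes of at least 5 CPM, 41.0% fell and 29.8% rose. Aacs, which makes acetoacetyl-CoA in the cytosol, rose (log2 fold change 0.15, SE 0.04, adjusted p = 1.64e-03). Pdss1, which makes the side chain of coenzyme Q, fell most (log2 fold change -0.91, SE 0.15, adjusted p = 1.78e-09). Abi1, on the other strand, shares exon sequence with it and holds many times more counts. The SREBP and LXR machinery fell in 9 of 18 tested members (50%) and rose in 6 (33.3%), shares near those of all genes of at least 5 CPM. Nr1h2, which encodes LXR beta, had the largest rise at a mean of 5 CPM or more (log2 fold change 0.28, SE 0.08, edgeR adjusted p = 1.00e-03). Below that level Nr1h3, the other LXR gene, rose more, from few reads. It had 18 and 33 counts in IR cells, against 5 and 10 counts in nonIR cells (log2 fold change 1.78, SE 0.68, edgeR adjusted p = 0.0156). Not all genes listed with LXR rose. Lpcat3 fell (log2 fold change -0.87, SE 0.11, edgeR adjusted p = 8.19e-16), with 15.8 and 14.9 CPM in IR cells, against 27.7 and 28.4 CPM in nonIR cells. Rxra also fell (log2 fold change -0.23, SE 0.06, edgeR adjusted p = 3.74e-04), while Rxrb rose (log2 fold change 0.16, SE 0.07, edgeR adjusted p = 0.0307). Mid1ip1, which promotes polymerization of acetyl-CoA carboxylase, fell most, with 25.1 and 30.3 CPM in IR cells, against 54.0 and 52.6 CPM in nonIR cells (log2 fold change -0.95, SE 0.08, adjusted p = 2.04e-33). Mbtps2, the Golgi protease that makes the last cut of SREBP, fell with a log2 fold change of -0.83 and was chosen after its values were seen. Yy2 shares 2867 of its exon bases on the same strand, so its level is uncertain. Mbtps1, the protease of the first cut, went the other way, with 287 and 280 CPM in IR cells, against 268 and 255 CPM in nonIR cells (log2 fold change 0.12, SE 0.03, edgeR adjusted p = 1.89e-03).

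Other fatty acid synthesis and activation genes fell in 11 of 24 tested members (45.8%), and 1 (4.17%), Acacb, rose. Among all genes of at least 5 CPM, 41.0% fell and 29.8% rose, so the share that fell was near that of all such genes. The median log2 fold change of the list was -0.18. Its summed level was 1820 and 1832 CPM in IR cells, against 2069 and 2050 CPM in nonIR cells. Fads3, a relative of the front-end desaturases, fell most at a mean of 5 CPM or more. It had 55.7 and 58.9 CPM in IR cells, against 92.8 and 94.5 CPM in nonIR cells (log2 fold change -0.71, SE 0.06, edgeR adjusted p = 2.23e-35).

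**Figure D4:**
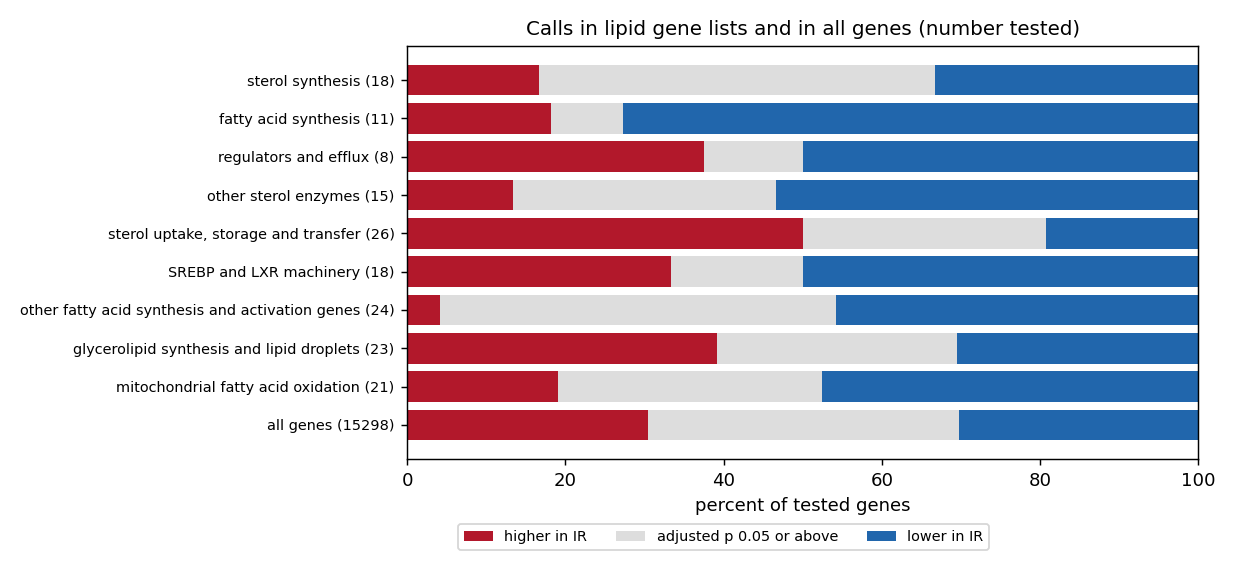
Percent of the tested genes of each list that were higher, lower or at an adjusted p of 0.05 or above in IR cells, with the number tested in brackets and all 15298 genes at the bottom. Sterol uptake, storage and transfer shows 50% higher, fatty acid synthesis 72.7% lower, and all genes 30.4% higher and 30.3% lower.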

How the data were processed

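Messenger RNA libraries of MC38 cells were sequenced by the authors, who deposited raw counts: whole numbers for each Ensembl gene, with a column for each library and no normalization or pooling. HISAT, HISAT2, DESeq2, HTSeq and mm10 are named, with no roles, in the submitters' processing notes. For the annotation release, the strand setting and reads with several matches nothing is given in the sources used here, so genes that overlap or have close copies may have lost or gained reads. Groups came from the sample titles. The description of nonIR replicate 2 carries number 1, in conflict with its title, which the column name matches. Symbols, coordinates and merged exon lengths came from GENCODE M21 (GRCm38).

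Counts were tested with edgeR 4.0.16 in R 4.3.3 (TMM, filterByExpr, robust glmQLFit, glmQLFTest), with a term for irradiation alone, and adjusted by Benjamini-Hochberg over 15298 genes. A gene rose or fell where the adjusted p was under 0.05. The tested genes hold 99.9% of the counts. CPM are counts per 1000000 of the TMM-scaled library size, n = 2 libraries in each group. The SE is the size of the log2 fold change over the square root of F. Sharing of transcript sequence was measured as 50-mers found in another gene's GENCODE transcripts. Alternatives were DESeq2 1.42.0, other scalings and filters, each library left out and a replicate block. The scripts were tested on simulated data.

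The 37 members and all lists were chosen with earlier results of these data known. Full values are given for the 6 sterol and 5 fatty acid members that passed, averaged 5 CPM or more and changed most, for members that moved against their branch, and for every regulator or efflux gene. From each other list the member that rose most and the one that fell most at that level are named.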

Additional observations from a re-analysis of the deposited data

How the results depend on the processing

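Of 370 values of single genes under the 10 alternatives, 339 kept their direction and their side of the threshold, 11 changed sign without passing the threshold, 10 calls were lost (Elovl5, Fads1 and Abca1) and 10 were gained (Hmgcs1, Mvd, Cyp51, Sc5d, Insig2 and Fads2). The count of sterol genes called higher, 3 as reported, was 7 with total counts only and 5 with a filter of at least 1 CPM in 2 libraries, settings that moved the median of all genes by 0.06 and 0.03 on the log2 scale. The sign changes were in sterol genes that had not passed. Lss had a log2 fold change of -0.0159 with no filter and -0.0025 with DESeq2, Hmgcs1 had -0.0070 with no filter, and Fdft1 was at 0.0197 with total counts only. With a library left out, the log2 fold change ran over -0.0221 to 0.0300 for Hmgcs1, -0.0303 to 0.0149 for Lss, -0.0078 to 0.0711 for Fdps, -0.0014 to 0.0762 for Cyp51 and -0.0195 to 0.1118 for Tm7sf2. The cause was not tested. Every other count of calls stayed within 1.5 times its reported value: DESeq2 called 4409 genes higher and 4331 lower, and leaving out a library gave 3920 to 4307 higher and 4213 to 4389 lower over all genes. Total counts only gave 56.1% of calls higher. The replicate numbers of the titles were tried as a replicate block, which gave 4507 genes higher and 4519 lower and the same numbers of calls in each branch. Deviations of libraries with the same number were not correlated (Pearson r -0.01 across genes), and with 2 pairs the numbers do not establish a pairing. Depth limited few of the 37 genes: the lowest, Abcg1, had 13 and 21 counts in nonIR cells.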

Other observations

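Lipid storage and fatty acid breakdown, which share substrates with the 37 genes, were looked at in lists chosen with earlier results of these data known. Of 23 tested genes of glycerolipid synthesis and lipid droplets, 9 (39.1%) rose and 7 (30.4%) fell, where 30.4% of all tested genes rose and 30.3% fell, with a median log2 fold change of 0.06, and their summed level was 1156 and 1159 CPM in IR cells, against 979 and 973 CPM in nonIR cells. Lpin1, a phosphatase that makes diacylglycerol, had the largest rise at a mean of 5 CPM or more, with 81.7 and 78.9 CPM in IR cells, against 36.3 and 31.0 CPM in nonIR cells (log2 fold change 1.26, SE 0.07, edgeR adjusted p = 4.81e-81). Fitm2, which helps droplets bud, fell most, with 20.3 and 16.8 CPM in IR cells, against 31.5 and 36.6 CPM in nonIR cells (log2 fold change -0.87, SE 0.10, edgeR adjusted p = 7.71e-19). Chosen after their values were seen, the droplet coat genes Plin2, Plin3 and Plin4 rose with log2 fold changes of 0.93, 0.55 and 0.93. Plin2 had 175 and 172 CPM in IR cells, against 92.3 and 89.6 CPM in nonIR cells. The adipocyte markers listed summed to 0.168 and 0.414 CPM in IR cells and 0 and 0.137 CPM in nonIR cells, so the defining transcripts of fat cells were near 0.

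Mitochondrial fatty acid oxidation genes fell in 10 of 21 tested members (47.6%) and rose in 4 (19.0%), with a median log2 fold change of -0.14. Of all genes of at least 5 CPM, 41.0% fell and 29.8% rose. Cpt1a, the carnitine transferase that malonyl-CoA inhibits, rose, with 126 and 113 CPM in IR cells, against 73.2 and 73.3 CPM in nonIR cells (log2 fold change 0.71, SE 0.05, edgeR adjusted p = 1.40e-40). Eci2, an isomerase of unsaturated chains, fell most (log2 fold change -0.52, SE 0.09, edgeR adjusted p = 2.14e-08).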
